A study of Mus musculus with 17 samples.

Results

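The Wnt ligands and modulators described here are 10 mouse genes: the ligands Wnt5a, Wnt7a, Wnt7b and Wnt8b, the secreted modulators Rspo2, Rspo3, Sfrp1 and Sfrp2, and the intracellular modulators Dact1 and Tcf7l1. They were taken by gene symbol from the 18193 genes measured on the arrays, and 25 of the 34945 probe sets that carried 1 symbol belonged to them. The members were chosen from earlier results of these same arrays, so their values below are descriptions, and no p-value is given for them. For each gene the probe set with the highest mean over all arrays was used, and the other probe sets are described beside it, from a fit over all 34945.

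The study used 17 Affymetrix expression arrays, each for total RNA of sorted embryonic cortical cells from hGFAP eGFP mice, in which the human GFAP promoter drives enhanced green fluorescent protein (eGFP). All 17 arrays came from embryos of this line, and the labels give no strain, sex, litter or number of embryos pooled. The 5 groups were GFP-positive cells selected for Prominin at embryonic day 18 (E18 GFP-positive Prominin, n = 4), GFP-high cells selected for Prominin at embryonic day 14 (E14 GFP-high Prominin, n = 4), GFP-low cells selected for Prominin at embryonic day 14 (E14 GFP-low Prominin, n = 3), GFP-high cells at embryonic day 14 with no Prominin gate named (ungated GFP-high, n = 3) and GFP-low cells at embryonic day 14 with no Prominin gate named (ungated GFP-low, n = 3). Prominin, the product of Prom1, is a membrane protein of the apical surface of neural progenitors, and the series was made to compare subtypes of radial glia separated by it and by the strength of GFP. Because nothing in the labels ties the arrays of a group to separate litters, the spread between them may be partly technical.

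Wnt proteins are secreted lipid-modified ligands that bind Frizzled receptors and LRP co-receptors; in the canonical branch this stabilises beta-catenin, which then acts with TCF/LEF proteins on target genes. R-spondins (Rspo2, Rspo3) raise the number of receptors at the cell surface, secreted Frizzled-related proteins (Sfrp1, Sfrp2) bind Wnts or Frizzleds outside the cell, Dact1 binds Dishevelled inside it, and Tcf7l1 (also called Tcf3) acts mainly as a repressor at TCF/LEF sites. In the developing cortex Wnt signalling is known for its part in the expansion of progenitors and in the patterning of the medial wall, where the cortical hem is a source of Wnts.

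Promoter windows of 300 bases, built to run from 250 bases before to 50 bases after a start of the gene, were found for 5 of the 10 members (Wnt7a, Wnt8b, Sfrp2, Dact1 and Tcf7l1) in a RefSeq table for build GRCm38.p6. For 4 of them that start is the outermost annotated one, while the Sfrp2 window lies downstream of the gene's outermost annotated start (position 83765750), inside the annotated gene. The 3 printed here belong to genes whose levels separated GFP-high from GFP-low cells among the ungated arrays, Wnt7a and Sfrp2 being higher in GFP-high cells and Dact1 lower. Each is written 5′ to 3′ on the gene's own strand, and capitals mark CG dinucleotides.
Dact1, chr12:71309634-71309933, plus strand: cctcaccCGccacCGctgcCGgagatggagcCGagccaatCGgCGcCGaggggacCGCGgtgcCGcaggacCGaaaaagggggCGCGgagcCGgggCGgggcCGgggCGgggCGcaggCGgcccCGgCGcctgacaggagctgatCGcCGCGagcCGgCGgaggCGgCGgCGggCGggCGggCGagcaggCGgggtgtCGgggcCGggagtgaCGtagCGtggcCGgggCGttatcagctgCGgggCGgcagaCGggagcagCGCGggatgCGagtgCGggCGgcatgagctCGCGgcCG
Wnt7a, chr6:91411304-91411603, minus strand: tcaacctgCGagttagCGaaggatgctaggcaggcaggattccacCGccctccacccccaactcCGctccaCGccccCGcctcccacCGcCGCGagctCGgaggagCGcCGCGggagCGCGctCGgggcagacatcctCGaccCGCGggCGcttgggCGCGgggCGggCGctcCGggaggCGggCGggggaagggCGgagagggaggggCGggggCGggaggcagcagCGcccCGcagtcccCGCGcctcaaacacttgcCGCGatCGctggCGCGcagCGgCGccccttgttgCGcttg
Sfrp2, chr3:83766071-83766370, plus strand: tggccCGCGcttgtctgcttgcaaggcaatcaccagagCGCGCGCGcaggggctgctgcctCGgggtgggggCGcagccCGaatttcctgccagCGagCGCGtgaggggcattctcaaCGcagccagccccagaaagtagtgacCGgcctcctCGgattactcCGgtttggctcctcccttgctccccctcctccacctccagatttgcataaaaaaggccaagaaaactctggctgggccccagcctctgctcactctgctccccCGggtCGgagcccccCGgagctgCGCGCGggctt
These windows held 50 CG dinucleotides for Dact1, 42 for Wnt7a and 22 for Sfrp2, against a median of 7 over the 32851 windows of the table, of which 23.1% held 22 or more. The Tcf7l1 window held 34 and the Wnt8b window 6, a count not exceeded in 47.9% of all windows. The TCF/LEF core letters CTTTGAA and CTTTGAT were searched on both strands and were in none of the 5 windows, while 8.65% of all windows held at least 1 of them; no match says only that these letters are not in these 300 bases.

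Levels are given as log2 of the deposited signal plus 16, normalised by quantiles over the 17 arrays, and differences as log2 differences on that scale with the standard error of the fit. A background level of 5.88 was taken from 109 olfactory receptor, vomeronasal receptor and keratin-associated genes, as the 95th percentile of their highest group means. No fold change is given where the lower group mean was at or below that level, since such a value depends on the 16 added (the pseudocount), whose log2 is 4. Levels of different genes come from different probes and are not set against each other.

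Several technical values move with the groups. By the labels, RNA was labelled with the MessageAmp kit for the 11 Prominin arrays and ungated GFP-high replicate 1, and with a kit from Affymetrix for the 5 remaining ungated arrays. The 18S control signal was 302 to 583 on the E18 arrays, 2292 to 5192 on the 7 E14 Prominin arrays and 175 to 627 on the 6 ungated arrays. The log2 ratio of the 3′ to the 5′ Gapdh control was -0.21 to 1.00, 0.54 to 2.30 and -0.25 to 0.18 in the same order. The signal of dap, a bacterial control sequence of the array, was 837 to 2356 on the E18 arrays and 613 to 1713 on the ungated arrays. It was 4145 on E14 GFP-high Prominin replicate 1 and 0.632 to 21.6 on the rest of the E14 Prominin arrays. The part of these controls in the differences below was not tested. Prom1 itself had mean levels of 8.84 in E18 GFP-positive Prominin, 10.93 in E14 GFP-high Prominin, 10.19 in E14 GFP-low Prominin, 10.78 in ungated GFP-high and 8.63 in ungated GFP-low cells, so the level in the E18 cells was close to that of ungated GFP-low cells. Gfap, whose human promoter drives the reporter, stayed under the background level in all 5 group means, at 4.82 to 5.77.

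A member is counted as called where its adjusted p in the limma fit over all 18193 genes was under 0.05 (Benjamini-Hochberg). Between E14 GFP-high and GFP-low Prominin cells 0 members were called higher and 2 lower, where 0.478% of all genes were called higher and 1.2% lower. Between ungated GFP-high and GFP-low cells 4 members were higher and 3 lower, where 7.61% of all genes were higher and 8.16% lower. E18 GFP-positive Prominin cells, set against E14 GFP-high Prominin cells, had 4 members higher and 5 lower, where 10.2% and 16.5% of all genes were. Set against E14 GFP-low Prominin cells they had 0 members higher and 4 lower, where 6.02% and 11.4% of all genes were. Since the members were picked with such comparisons in view, nothing is read from these counts, and the comparisons of the E18 cells share 4 arrays. The median log2 difference of the 10 members was 0.06, 0.23, -0.40 and -0.18 in these 4 comparisons, against -0.01, -0.01, -0.07 and -0.10 over all genes.

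**Figure D1:**
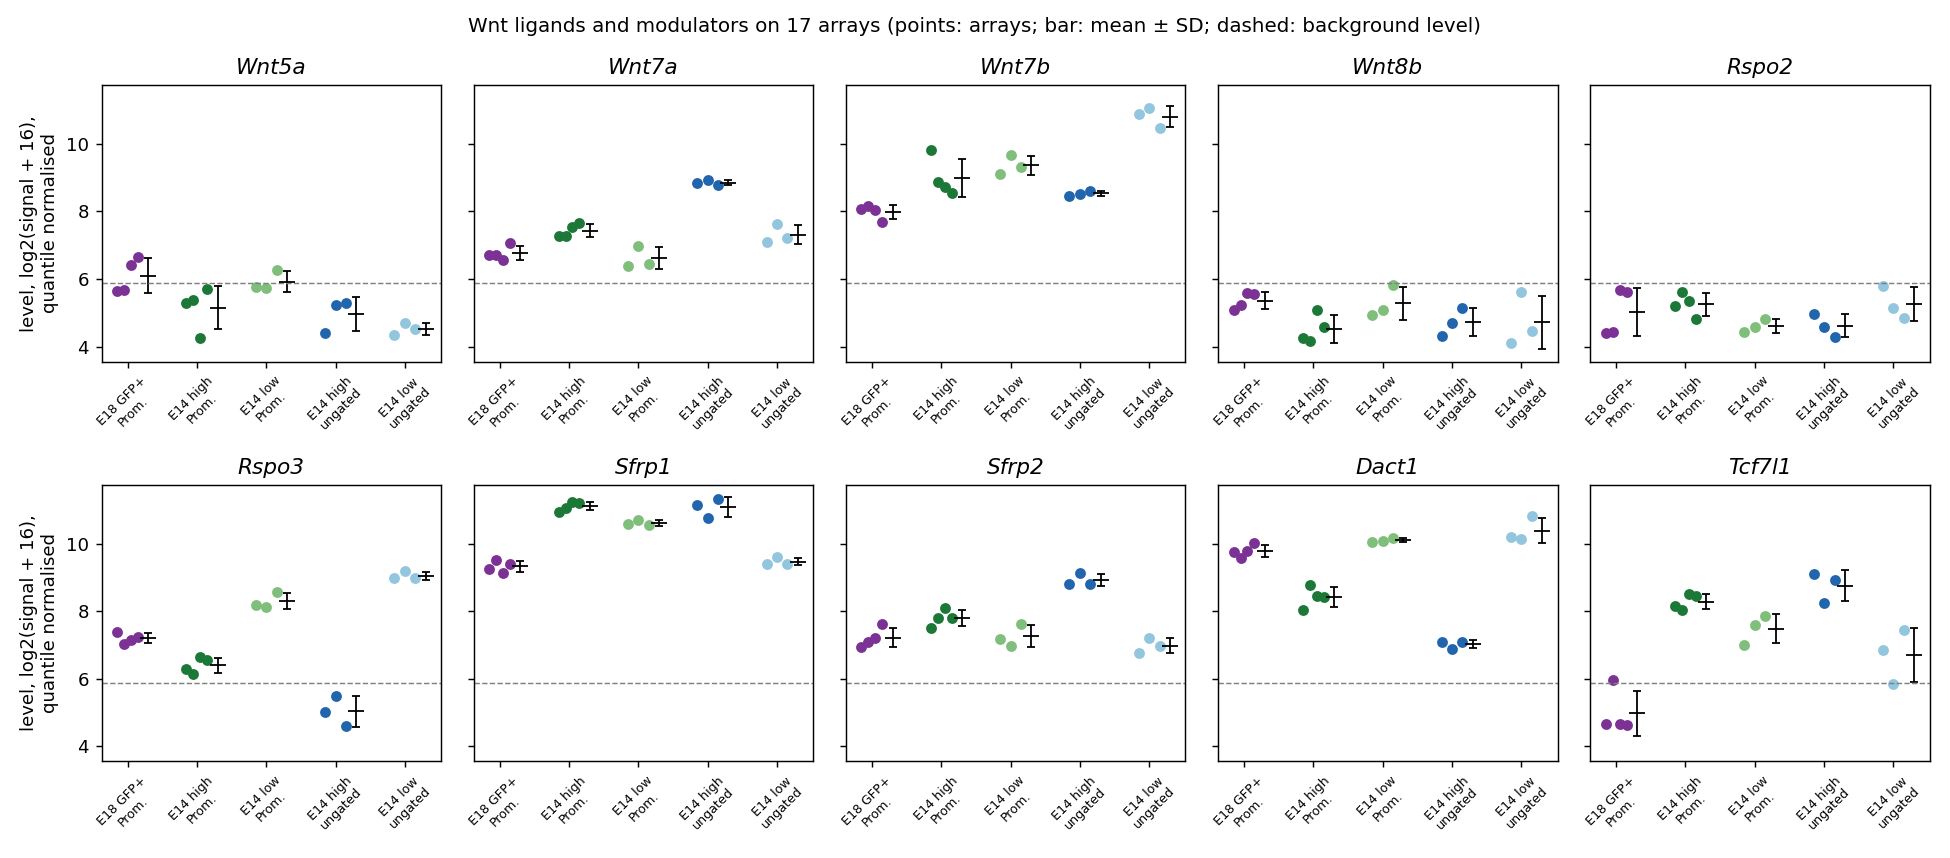
Level of each of the 10 genes (vertical axis, log2 of signal plus 16, quantile normalised) in the 5 groups (horizontal axis); each point is an array, the bar beside it the group mean ± SD and the dashed line the background level of 5.88. Wnt8b and Rspo2 had all 5 group means below the line, while Rspo3 and Dact1 were lowest in ungated GFP-high cells.

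Wnt7a, a ligand that can signal through beta-catenin, was highest in ungated GFP-high cells. Its level was 6.71, 6.72, 6.56 and 7.06 in E18 GFP-positive Prominin cells, 7.27, 7.28, 7.53 and 7.64 in E14 GFP-high Prominin cells and 6.40, 6.99 and 6.45 in E14 GFP-low Prominin cells. It was 8.84, 8.93 and 8.79 in ungated GFP-high cells and 7.10, 7.63 and 7.20 in ungated GFP-low cells. The GFP-high arrays lay above the GFP-low arrays in both sorts, with no overlap. The difference was 0.82 ± 0.19 (1.76-fold higher) in the Prominin sort, which was not called, and 1.54 ± 0.20 (2.91-fold higher) in the ungated sort, which was. The Prominin difference was called under 5 of 16 alternatives, among them a pseudocount of 64 (0.59), the fit without the dimmest genes (0.82) and that without GFP-low replicate 2 (1.01). E18 cells were lower than E14 GFP-high Prominin cells by a called difference of -0.67 ± 0.18 (1.59-fold), though not with the values as deposited, where the difference was -0.46. Their mean of 6.76 ± 0.21 overlapped in range with that of E14 GFP-low Prominin cells, 6.61 ± 0.33 (SD, n = 4 and 3). A second Wnt7a probe set, close to background at mean levels of 5.76 to 6.17, was called in 0 of the 7 comparisons, and the one left lay below background in every group.

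Wnt7b, the closest relative of Wnt7a, had the opposite order in the ungated sort. Among Prominin cells it was 8.08, 8.15, 8.03 and 7.68 at E18, 9.82, 8.86, 8.73 and 8.54 in E14 GFP-high and 9.11, 9.66 and 9.32 in E14 GFP-low cells. The 2 E14 Prominin groups overlapped, with a difference of -0.38 ± 0.27 that was not called. It was -0.65 without E14 GFP-high Prominin replicate 1, which stood above the other 3 arrays of its group, and -0.23 without GFP-high replicate 4 or GFP-low replicate 2, and was not called in any of these. Replicate 1 also had the highest 18S and dap control signals of its group, 5192 and 4145, against 2446 to 3132 and 0.632 to 21.6 on the other 3 arrays. The Wnt7b level was 8.45, 8.53 and 8.62 in ungated GFP-high cells and 10.87, 11.07 and 10.47 in ungated GFP-low cells, a called difference of -2.28 ± 0.21 (4.84-fold lower). The E18 arrays all lay below the 7 E14 Prominin arrays. The E18 difference was -1.0 ± 0.25 (2.0-fold lower) from GFP-high and -1.38 ± 0.27 (2.60-fold lower) from GFP-low Prominin cells, both called. The second Wnt7b probe set gave called differences of the same sign in the ungated sort and at E18, of -1.96 ± 0.27, -1.34 ± 0.31 and -1.58 ± 0.33 in the same order.

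Wnt5a, known mainly as a ligand of branches that do not use beta-catenin, was dim throughout. It was 5.65, 5.68, 6.42 and 6.65 in E18 cells, 5.31, 5.37, 4.24 and 5.70 in E14 GFP-high Prominin cells and 5.76, 5.74 and 6.28 in E14 GFP-low Prominin cells, with 2 of the 4 E18 arrays and 1 of the 3 E14 GFP-low arrays above background. On the ungated arrays it stayed between 4.35 and 5.28, all below background. The difference between E18 and E14 GFP-high Prominin cells, 0.94 ± 0.32, was called with overlapping ranges, and that call was lost when any of 5 of the 8 arrays was left out (E18 replicates 4 and 5 and GFP-high replicates 1, 2 and 3; 0.64 to 1.13 over all 8). It was 0.47 with a pseudocount of 64 and 1.60, not called, with 1. Interneuron markers were also high in the E18 cells: the summed signal of 8 such genes was 2974 to 3356 there, 326 to 662 in E14 GFP-high Prominin and 494 to 806 in E14 GFP-low Prominin cells; their part in the Wnt5a values was not tested. Of the other 3 Wnt5a probe sets, all below background, 2 were called higher at E18 than in E14 GFP-high Prominin cells.

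Wnt8b, a ligand known from the medial cortical wall, had group means of 5.37 ± 0.24 at E18, 4.52 ± 0.41 in E14 GFP-high Prominin, 5.28 ± 0.48 in E14 GFP-low Prominin, 4.72 ± 0.41 in ungated GFP-high and 4.72 ± 0.79 in ungated GFP-low cells, and 0 of 17 arrays was above background. A called difference of 0.85 ± 0.24 between E18 and E14 GFP-high Prominin cells therefore compares 2 levels under the background. It was lost when any of 4 of the 8 arrays was left out (E18 replicates 4 and 5 and GFP-high replicates 1 and 2; 0.73 to 1.03), it was 0.33 with a pseudocount of 64 and 1.96 with 1, and the other 2 Wnt8b probe sets were called in 0 comparisons. Of 13 measured markers of the cortical hem and choroid plexus, where Wnt8b would be looked for, 1 was above background in each group, Bmp7 at E18 (5.95) and Msx1 in the E14 groups (5.89 to 6.31), and 0 were called in any comparison by limma, with 0 to 2 at an unadjusted p under 0.05. Lmx1a, Wnt3a and Ttr, which define these tissues, stayed below background in all 5 groups.

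Rspo3, an R-spondin, had its lower levels in the GFP-high gate of both sorts. Among Prominin cells the arrays read 7.38, 7.04, 7.16 and 7.24 at E18, 6.29, 6.14, 6.63 and 6.54 in E14 GFP-high and 8.19, 8.13 and 8.56 in E14 GFP-low cells. The GFP difference at E14 was called, at -1.89 ± 0.17 (3.71-fold lower in GFP-high cells). On the ungated arrays the order was the same, with 5.01, 5.50 and 4.59 in GFP-high cells, all below background, and 8.98, 9.18 and 8.98 in GFP-low cells, a called difference of -4.01 ± 0.26. With the lower group below background its size depends on the pseudocount, at -2.82 with 64 and -4.94 with 1, both called. E18 cells lay between the 2 E14 Prominin groups. They were 1.75-fold higher than E14 GFP-high (0.80 ± 0.16) and 2.13-fold lower than E14 GFP-low Prominin cells (-1.09 ± 0.17), and all 5 groups had ranges that were apart from their neighbours in the order. The dimmer Rspo3 probe set, above background in the 2 GFP-low groups, gave a GFP difference of -1.25 ± 0.28 in the Prominin sort, not called, and a called one of -1.60 ± 0.32 in the ungated sort. It was also called lower at E18 than in E14 GFP-low Prominin cells (-1.06 ± 0.28). Against E14 GFP-high Prominin cells it was not called (0.18 ± 0.26), with both means, 5.32 and 5.14, below background.

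Rspo2, the other R-spondin, stayed below background in all 5 group means with both of its probe sets. The probe set used read 4.40, 4.43, 5.68 and 5.62 at E18, where 2 arrays lay about 1 unit above the other 2, and was called in 0 of 7 comparisons. The other was called higher at E18 than in E14 GFP-high Prominin cells, by 1.30 ± 0.31, where the used one gave -0.22 ± 0.30. With levels under the background the sign of the Rspo2 difference depends on the probe set.

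Sfrp1, a secreted Wnt-binding protein made by cortical progenitors, was bright in every group. Its level was 9.26, 9.51, 9.14 and 9.39 at E18, 10.94, 11.06, 11.22 and 11.20 in E14 GFP-high Prominin cells and 10.58, 10.69 and 10.53 in E14 GFP-low Prominin cells. On the ungated arrays it was 11.15, 10.75 and 11.32 in GFP-high and 9.40, 9.59 and 9.40 in GFP-low cells. The E18 arrays lay below all 7 E14 Prominin arrays, with called differences of -1.78 ± 0.13 (3.44-fold lower) from GFP-high and -1.28 ± 0.15 (2.42-fold lower) from GFP-low cells. GFP-high lay above GFP-low cells in both sorts without overlap, by 0.51 ± 0.15 (1.42-fold, not called, but called at 0.49 with a pseudocount of 64 and at 0.51 with an intensity trend) among Prominin cells and by 1.61 ± 0.21 (3.05-fold, called) among ungated cells.

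Of the 5 Sfrp1 probe sets, all above background in every group, all 5 were called higher in ungated GFP-high than in ungated GFP-low cells, by 1.03 to 1.83. At E18 the probe sets disagreed: against E14 GFP-high Prominin cells 4 were called lower, by -1.78 to -0.78, and 1 was not, at -0.15 ± 0.39. Against E14 GFP-low Prominin cells those at -1.28 ± 0.15 (the one used), -0.76 ± 0.16 and -0.66 ± 0.15 were called lower. Those at -0.64 ± 0.34 and 0.22 ± 0.42 were not called. Differences in Sfrp1 between Prominin and ungated cells depended on the probe set in the same way, as the comparison of Prominin with ungated cells shows.

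Sfrp2, a close relative of Sfrp1, was highest in ungated GFP-high cells. Among Prominin cells the values were 6.95, 7.10, 7.20 and 7.61 at E18, 7.49, 7.80, 8.09 and 7.79 in E14 GFP-high and 7.19, 6.97 and 7.61 in E14 GFP-low cells, and each pair of these groups overlapped. The GFP difference there was 0.54 ± 0.21 and not called. The ungated arrays read 8.82, 9.12 and 8.81 in GFP-high cells and 6.77, 7.20 and 6.96 in GFP-low cells, 2 groups well apart, with a called difference of 1.94 ± 0.20 (3.82-fold higher). The E18 difference from E14 GFP-high cells, -0.58 ± 0.19 (1.49-fold lower), was called. That call was lost when any of 6 of the 8 arrays was left out (-0.71 to -0.48 over all 8). These were E18 replicates 2, 3 and 4 and GFP-high replicates 2, 3 and 4. It was also lost with the values as deposited (-0.44), with a pseudocount of 1 (-0.63) and with every probe set tested (-0.58).

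Dact1, the Dishevelled-binding protein, likewise had its lower levels in the GFP-high gate of both sorts. Among Prominin cells it was 9.76, 9.56, 9.79 and 10.01 at E18, 8.03, 8.77, 8.44 and 8.41 in E14 GFP-high and 10.05, 10.09 and 10.16 in E14 GFP-low cells. The E18 arrays were all above the E14 GFP-high arrays and below the E14 GFP-low ones. The GFP difference among these E14 cells was called, at -1.69 ± 0.18 (3.22-fold lower). On the ungated arrays Dact1 was 7.09, 6.88 and 7.10 in GFP-high and 10.19, 10.15 and 10.80 in GFP-low cells, a called difference of -3.36 ± 0.23 (10.2-fold lower). The called difference of E18 from E14 GFP-high Prominin cells was 1.37 ± 0.17 (2.58-fold higher), and that from E14 GFP-low, -0.32 ± 0.18, was not called. A single probe set measured Dact1.

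Tcf7l1, the repressor of the TCF/LEF family, was lower at E18 than in both E14 Prominin groups. Its level was 4.65, 5.98, 4.67 and 4.62 at E18, where 1 array lay at 5.98 and the other 3 near 4.6, 8.15, 8.04, 8.51 and 8.44 in E14 GFP-high Prominin cells and 7.00, 7.59 and 7.85 in E14 GFP-low Prominin cells. All 7 E14 Prominin arrays were above background and above every E18 array. The called differences were -3.31 ± 0.30 from GFP-high and -2.50 ± 0.32 from GFP-low Prominin cells. With the E18 mean below background they depend on the pseudocount, at -2.15 and -1.49 with 64, both called. The second probe set, with an E18 mean of 5.79, gave -2.50 ± 0.18 and -1.51 ± 0.19, both called. Between E14 GFP-high and GFP-low Prominin cells the used probe set gave 0.80 ± 0.32, not called, and the second one 0.99 ± 0.19, called. In the ungated sort Tcf7l1 was 9.09, 8.24 and 8.93 in GFP-high and 6.85, 5.85 and 7.43 in GFP-low cells. That called difference of 2.05 ± 0.43 (4.13-fold higher) was lost without GFP-high replicate 1, GFP-high replicate 3 or GFP-low replicate 1, with values of 1.62 to 2.41 over the 6 arrays left out in turn.

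**Figure D2:**
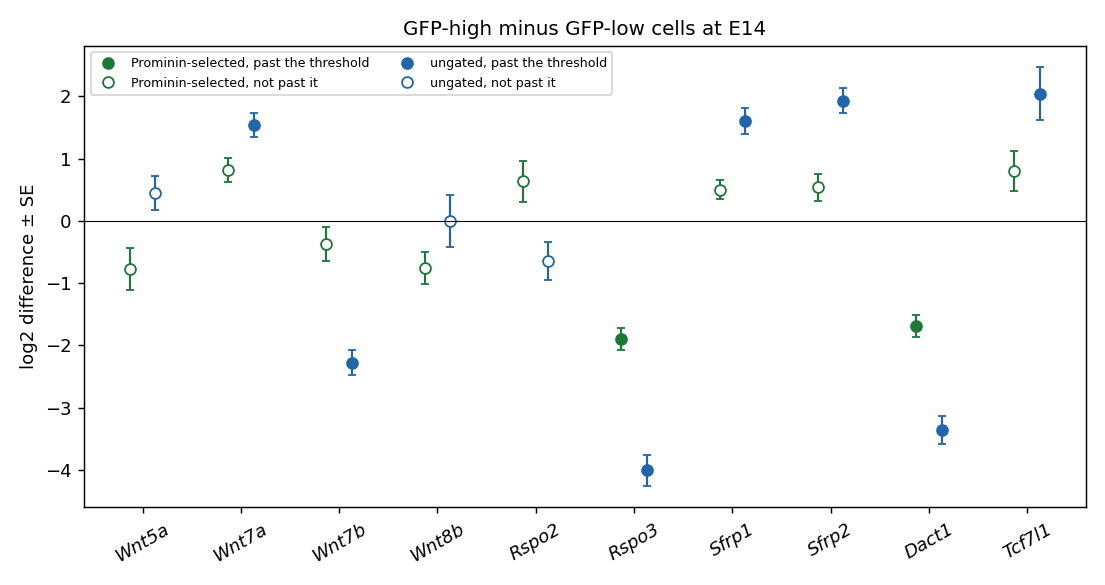
Log2 difference between GFP-high and GFP-low cells at E14 (vertical axis, ± SE) for the 10 genes (horizontal axis), in Prominin cells (green, n = 4 and 3) and in ungated cells (blue, n = 3 and 3); filled points were past the adjusted threshold over all genes. Rspo3 and Dact1 were lower in GFP-high cells in both sorts, by -1.89 and -1.69 in Prominin cells and by -4.01 and -3.36 in ungated cells.

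**Figure D3:**
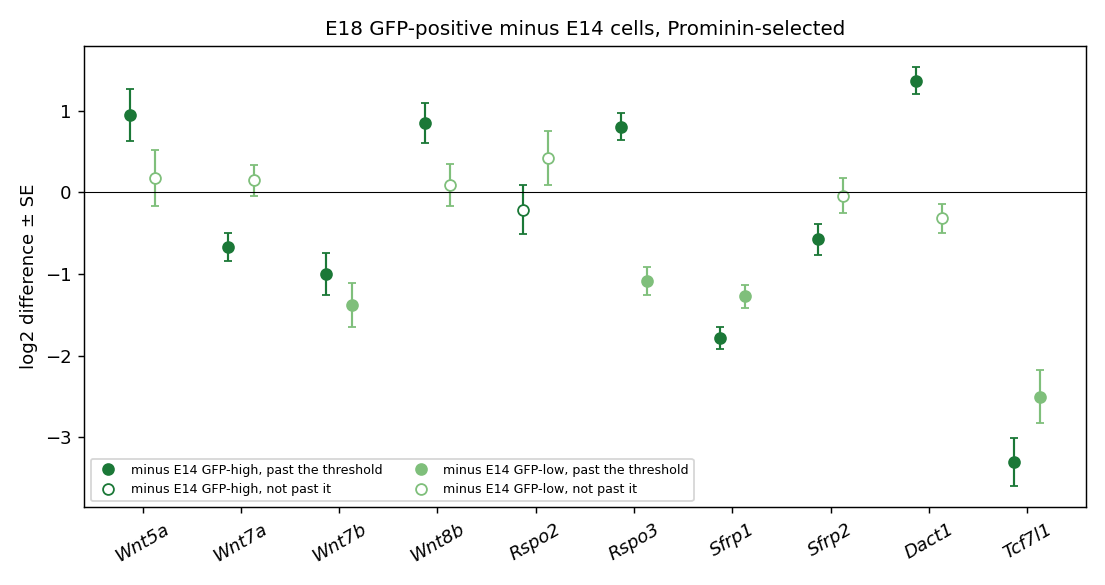
Log2 difference of E18 GFP-positive Prominin cells (n = 4) from E14 GFP-high Prominin cells (dark green, n = 4) and from E14 GFP-low Prominin cells (light green, n = 3), ± SE, for the 10 genes; filled points were past the adjusted threshold over all genes. Tcf7l1 was lowest, at -3.31 and -2.50, and Dact1 and Rspo3 lay above 0 only in the comparison with GFP-high cells.

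The difference between GFP-high and GFP-low cells was itself compared between the sorts, as the GFP difference in Prominin cells minus that in ungated cells. By the fit over all 17 arrays 3 members were called higher on this scale, where 3.87% of all genes were, and 2 lower, where 3.83% were. The GFP difference was less negative in Prominin cells for Rspo3 by 2.12 ± 0.29, for Wnt7b by 1.90 ± 0.37 and for Dact1 by 1.67 ± 0.28. It was less positive for Sfrp2 by -1.40 ± 0.30 and for Sfrp1 by -1.11 ± 0.23. With the labelling kit as a term these 5 values were 2.10, 1.86, 1.70, -1.45 and -1.07, and all 5 calls were kept. The Rspo3 value was 1.37, still called, with a pseudocount of 64. The dimmer Rspo3 probe set gave 0.36 ± 0.44, not called, and the second Wnt7b one 1.73 ± 0.47, called. Of the Sfrp1 probe sets not used, those at -0.91 ± 0.24 and -1.14 ± 0.31 were called, and those at -1.29 ± 0.46 and -1.46 ± 0.58 were not. The median over the 10 members was -0.74, against 0.00 over all genes.

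Cell type markers moved in the same comparisons. The radial glial list includes Prom1, the gene of the sorting antigen, so its counts and sums are not independent of the Prominin gate. The summed signal of 15 radial glial markers was 17256 to 21475 in E14 GFP-high Prominin and 11246 to 12879 in E14 GFP-low Prominin cells, and 35950 to 45911 in ungated GFP-high and 6763 to 9675 in ungated GFP-low cells. That of 14 markers of postmitotic neurons was 16463 to 18648 and 28311 to 30461 in the 2 Prominin groups, and 10986 to 11684 and 44881 to 67951 in the 2 ungated groups, GFP-high first in each pair. Radial glial markers called higher in GFP-high cells numbered 5 of 15 in the Prominin sort and 14 of 15 in the ungated sort, and neuronal markers called lower 8 of 14 and 13 of 14. Among 8 markers of basal progenitors 1 was called higher in the Prominin sort and 7 in the ungated sort. The part of these cell types in the differences of the 10 genes was not tested, and in sorted pools fewer cells of a type and less RNA per cell cannot be told apart.

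Markers of Cajal-Retzius neurons, early neurons of the cortical surface, were high in 1 group. The summed signal of 9 such genes was 948 to 1693 at E18, 823 to 1054 in E14 GFP-high Prominin and 4106 to 5701 in E14 GFP-low Prominin cells, and 322 to 364 in ungated GFP-high and 533 to 760 in ungated GFP-low cells. All 9 were above background in the E14 GFP-low Prominin cells, among them Reln at a mean level of 11.82 and Trp73 at 6.70, and 7 of 9 were called lower in E14 GFP-high than in E14 GFP-low Prominin cells. Rspo3 and Dact1, the 2 members called in that comparison, averaged 8.29 and 10.10 in E14 GFP-low Prominin cells. In ungated GFP-low cells they averaged 9.04 and 10.38, and 2 of the 9 markers were above background there, Reln at 8.64 and Nhlh2 at 7.02. The part of Cajal-Retzius neurons in the Rspo3 and Dact1 values was not tested. At E18, 6 of 8 interneuron markers and 3 of 5 markers of the oligodendrocyte lineage were called higher than in either E14 Prominin group. Set against E14 GFP-high Prominin cells, E18 cells also had 11 of 14 neuronal markers called higher and 0 lower, 10 of 15 radial glial markers lower and 3 higher, and 6 of 8 basal progenitor markers lower. Set against E14 GFP-low Prominin cells, they had 4 neuronal markers higher and 2 lower, 8 radial glial markers lower and 4 higher, and 4 basal progenitor markers lower. The summed radial glial signal at E18 was 11540 to 15585, the neuronal 29572 to 33622 and the basal progenitor 4654 to 5340, the last against 13096 to 15537 in E14 GFP-high and 9968 to 10513 in E14 GFP-low Prominin cells. The summed oligodendrocyte signal was 1560 to 2659 at E18 and 50 to 142 on the 13 E14 arrays; the part of these cell types in the E18 values was not tested.

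**Figure D4:**
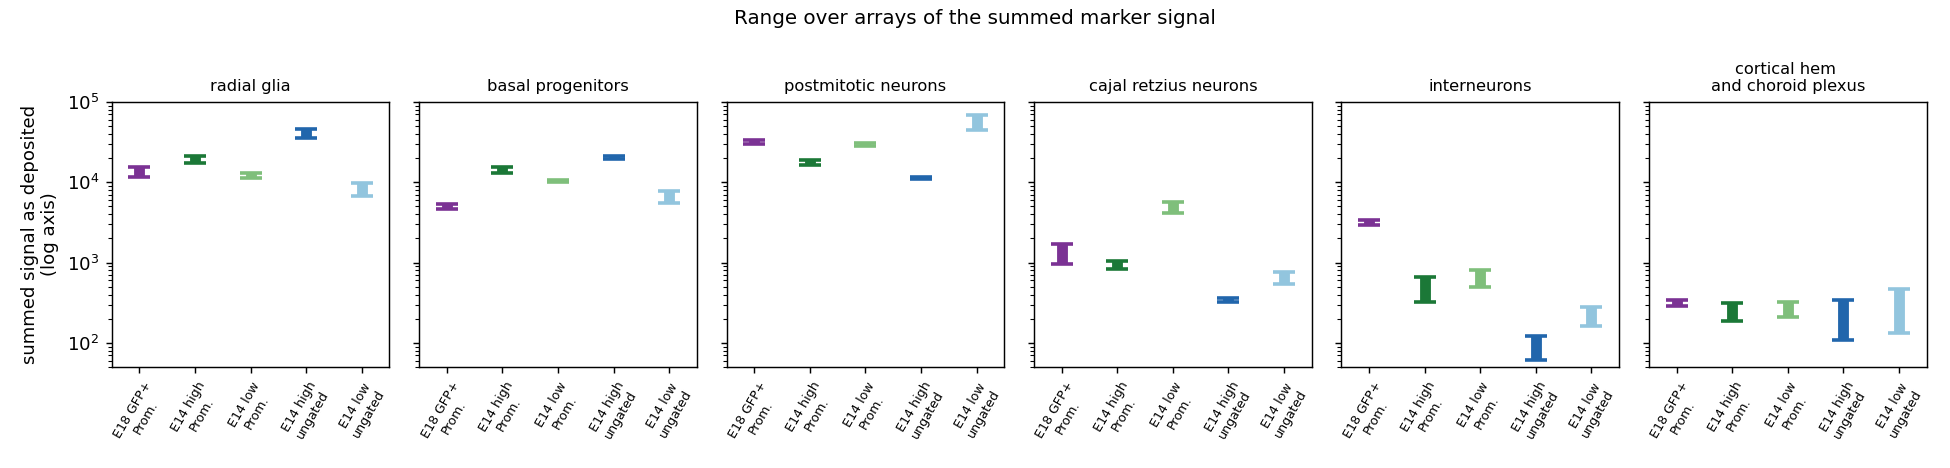
Lowest to highest summed signal as deposited over the arrays of each group (vertical log axis) for 6 lists of marker genes, in the 5 groups. Radial glial and neuronal sums lay further apart between ungated GFP-high and GFP-low cells than between the same gates in Prominin cells, and the Cajal-Retzius sum was 4106 to 5701 in E14 GFP-low Prominin cells.

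Prominin and ungated cells of the same GFP gate were also set against each other. In GFP-high cells 2 members were higher in Prominin than in ungated cells, where 11.8% of all genes were, and 2 were lower, where 8.98% were. Rspo3 (1.36 ± 0.20) and Dact1 (1.39 ± 0.19, 2.62-fold) were higher, and Wnt7a (-1.42 ± 0.19, 2.68-fold) and Sfrp2 (-1.12 ± 0.20, 2.18-fold) lower. The ungated Rspo3 mean of 5.04 is below background, and its difference was 0.70 with a pseudocount of 64 and 2.05 with 1, both called. Markers moved between the sorts too: in GFP-high cells 9 of 15 radial glial markers were called lower in Prominin than in ungated cells, and 8 of 14 neuronal and 6 of 8 interneuron markers higher, the other direction having 0 in each list. Ungated GFP-high replicate 1 shared the labelling kit of the Prominin arrays. Against that array alone the differences were 1.39, 1.32, -1.41 and -1.02 for the same genes, and the Sfrp2 call was lost. That fit has 1 ungated GFP-high array, assumed to vary like the other groups. With the kit as a term over all 17 arrays Sfrp2 was called at the same -1.02. The values of these fits are equal by construction, since only the ungated GFP-high group holds both kits. The kit term is therefore not a second check. In GFP-low cells 2 members were higher in Prominin than in ungated cells, where 10.8% of all genes were, and 3 were lower, where 8.46% were. These were Wnt5a (1.40 ± 0.35) and Sfrp1 (1.14 ± 0.17, 2.20-fold), and Wnt7b (-1.44 ± 0.27, 2.72-fold), Rspo3 (-0.75 ± 0.21, 1.68-fold) and Wnt7a (-0.70 ± 0.20, 1.62-fold). Wnt5a, with an ungated mean below background, was 0.62 with a pseudocount of 64 and 2.57 with 1, both called. In the same cells 8 of 9 Cajal-Retzius, 7 of 15 radial glial and 5 of 8 interneuron markers were called higher in Prominin than in ungated cells, 9 of 14 neuronal markers lower, and 5 of 8 basal progenitor markers higher and 1 lower. The part of these cell types in the differences between sorts was not tested. No ungated GFP-low array shared the kit of the Prominin arrays, so sort and kit cannot be told apart there. With the kit as a term 0 of the 5 were called. Their values then were 2.26, 1.02, -1.32, -0.72 and -0.69 in the order given, each with the sign it had without that term. The kit term rests on the ungated GFP-high arrays, the only group with both kits. Single arrays also ended calls: Wnt5a was lost without E14 GFP-low Prominin replicate 3 (1.23), Wnt7a without its replicates 1 or 3 or ungated GFP-low replicate 2 (-0.89 to -0.54 over the 6 arrays), and Rspo3 without its replicates 1 or 2 or ungated GFP-low replicate 2 (-0.89 to -0.67).

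Probe sets of 1 gene disagreed most in this comparison. For Sfrp1 in GFP-high cells the probe set used gave 0.03 ± 0.16, while 2 others were called lower in Prominin cells, at -1.24 ± 0.31 and -1.67 ± 0.40. Another, of the x_at type that can cross-hybridise, was called higher, at 0.71 ± 0.17. In GFP-low cells those 2 were not called, at 0.05 ± 0.34 and -0.21 ± 0.42. The x_at one, at 1.62 ± 0.18, and the one left, at 1.42 ± 0.22, were called higher there, like the one used. For Wnt7b in GFP-high cells the probe set used gave 0.46 ± 0.25, or 0.18 without E14 GFP-high Prominin replicate 1. The second one gave a called -1.09 ± 0.32 there. Both were called lower in GFP-low cells, the second one at -2.81 ± 0.34. For Tcf7l1 in GFP-low cells the second probe set was called higher in Prominin cells, at 1.34 ± 0.32, and the one used was not, at 0.77 ± 0.40. The dimmer Rspo3 probe set was not called in either gate, at 0.46 ± 0.30 in GFP-high and 0.10 ± 0.32 in GFP-low cells. For Wnt5a in GFP-low cells the probe sets not used, all below background, gave 0.37 ± 0.30, 0.34 ± 0.28 and 0.56 ± 0.28, none of them called. The 18S and Gapdh controls given above also separated the E14 Prominin from the ungated arrays, as did dap except on E14 GFP-high Prominin replicate 1. The part of these controls in the differences between sorts was not tested.

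Over the 17 arrays, Dact1 and Rspo3 ran together (Pearson r = 0.93), as did Tcf7l1 and Sfrp1 (0.89) and Sfrp2 and Wnt7a (0.86), while Dact1 and Sfrp2 ran opposite to each other (-0.90). Wnt7a and Wnt7b, paralogues, had an r of -0.06. These are descriptions over 17 arrays that fall into 5 groups, share 2 labelling kits and were normalised together. Among all genes above background, those most like each member over the same arrays were Erc2 (0.98) and Znrf2 (0.97) for Dact1, Sh3gl2 (0.97) and Sh3kbp1 (0.97) for Rspo3, Sez6 (0.95) and Bdh1 (0.95) for Wnt7b, and Calb2 (0.89) and Slc32a1 (0.84) for Wnt5a. Sfrp1 was most like Nsmce4a (0.98) and Prom1 (0.97), the gene of the sorting antigen, Tcf7l1 like Igf2bp1 (0.98) and Gpc1 (0.96), Sfrp2 like Nusap1 (0.97) and Mad2l1 (0.95), and Wnt7a like Dcaf8 (0.96) and Pea15a (0.94). For the 2 dim members the likeness was lower, with Slc4a4 (0.78) and Ggt5 (0.74) for Wnt8b and Cetn1 (0.69) and Plcl2 (0.69) for Rspo2.

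The rest of the pathway was read from lists of 92 other genes, of which 90 were measured and 57 were above background in some group. These lists were chosen with earlier results of these data known, and the genes named are those of lowest p. Their counts and adjusted p-values are therefore descriptions. Of the 15 other Wnt ligands 3 were above background, Wnt5b, Wnt6 and Wnt11, none with a group mean over 6.46, and 0 were called in any of the 7 comparisons by limma, with 0 to 3 at an unadjusted p under 0.05.

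Between E14 GFP-high and GFP-low Prominin cells 2 of the 90 genes were called higher and 2 lower, or 4.44%. Of all genes 0.478% were called higher and 1.2% lower. The Frizzled receptor Fzd8 averaged 8.29 ± 0.10 in GFP-high and 7.09 ± 0.19 in GFP-low cells (SD, n = 4 and 3; 2.30-fold higher, limma adjusted p = 0.0059). Fzd9 was higher by 0.90 ± 0.20 (limma adjusted p = 0.0491). Apc, the scaffold of the beta-catenin destruction complex, was lower by -0.86 ± 0.16 (limma adjusted p = 0.0279), and the corepressor Tle4 by -0.64 ± 0.14 (limma adjusted p = 0.0463). Fzd9 and Tle4 lost the call when any 1 of the 7 arrays was left out (0.75 to 1.02 and -0.71 to -0.54), and Apc when any of 5 was (GFP-high replicates 1, 3 and 4 and GFP-low replicates 1 and 3; -0.96 to -0.75).

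Between ungated GFP-high and GFP-low cells 8 of the 90 were called higher and 7 lower, or 16.7%. Of all genes 7.61% were called higher and 8.16% lower, a share close to that of the list. Draxin, a secreted Wnt antagonist known as an axon guidance protein, averaged 7.67 ± 0.20 in GFP-high and 10.25 ± 0.03 in GFP-low cells (SD, n = 3 each; 5.97-fold lower, limma adjusted p = 0.00061), the same direction as Rspo3 and Dact1. Fzd8 was 5.64-fold higher (limma adjusted p = 0.00153) and Fzd2 2.92-fold higher (adjusted p = 0.0044). Of the common Wnt targets, Ccnd1 was 3.85-fold higher (limma adjusted p = 0.0063), at 9.24 ± 0.12 in GFP-high and 7.30 ± 0.60 in GFP-low cells. Myc, another common target, was 2.73-fold lower (limma adjusted p = 0.0021), at 6.21 ± 0.13 and 7.66 ± 0.14 in the same order. Apc was 3.50-fold, Apc2 2.55-fold and Tle4 2.53-fold lower (limma adjusted p = 0.0024, 0.0053 and 0.0059).

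At E18, 10 of the 90 genes were called higher and 17 lower than in E14 GFP-high Prominin cells, or 30%. Of all genes 10.2% were called higher and 16.5% lower. Against E14 GFP-low Prominin cells 6 of the 90 were higher and 10 lower, or 17.8%, where 6.02% and 11.4% of all genes were. These shares are close to those of all genes. Nkd1, an inhibitor of Dishevelled that is also a common target, averaged 6.34 ± 0.24 at E18, 9.16 ± 0.17 in GFP-high and 8.97 ± 0.04 in GFP-low cells (SD, n = 4, 4 and 3). It was 7.09-fold and 6.18-fold lower at E18 (limma adjusted p = 4.8e-07 and 3.8e-06). Lef1, a TCF/LEF activator, was 5.20 ± 0.35 at E18, below background, against 6.74 ± 0.13 in GFP-high and 6.94 ± 0.06 in GFP-low cells (limma adjusted p = 4.4e-05 and 9.6e-05). Fzd2 was 4.60-fold and 3.15-fold lower (limma adjusted p = 1.0e-06 and 3.8e-05) and Ccnd1 2.33-fold and 1.88-fold lower (limma adjusted p = 0.00019 and 0.0046) in the same order. The ubiquitin ligase Znrf3, which R-spondins antagonise, was higher: 7.30 ± 0.28 at E18, 6.0 ± 0.30 in GFP-high and 5.76 ± 0.06 in GFP-low cells (limma adjusted p = 0.00021 and 0.00028). Apc was 2.96-fold higher than in GFP-high cells, Gsk3b 2.40-fold and 2.16-fold higher than in GFP-high and GFP-low cells, and Dkk3, at 6.80 ± 0.20 at E18, 1.83-fold higher than in GFP-low cells (limma adjusted p = 1.4e-05, 0.00017, 0.0016 and 0.0094). Of the common targets, therefore, 2 were called higher and 3 lower than in GFP-high Prominin cells, of 10 measured.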

How the data were processed

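The authors deposited 1 linear signal intensity per probe set and array, for 45101 probe sets of a mouse Affymetrix array. How probe sets were summarised, and to which target arrays were scaled, is not stated in the labels or the file. Per the labels' protocols, RNA was isolated with a column kit with DNase treatment and labelled with biotin. Array medians of this intensity were 24.2 to 45.1. From these values, 64 control probe sets were left out, log2(signal + 16) was taken and quantile normalised over the 17 arrays, and probe sets of 1 symbol were kept. The 18193 genes were fitted with limma 3.58.1 in R 4.3.3 (two-sided, Benjamini-Hochberg over all genes, threshold 0.05). Comparisons within Prominin cells used the 11 Prominin arrays, those within ungated cells the 6 ungated arrays, and those across sorts all 17. The fit was tested on simulated data. The number of arrays limits the precision.

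The members, the pathway lists and the marker lists were chosen with earlier results of these data known. All 10 members are named, whatever their values; from each pathway list, genes past the threshold with the lowest p and a group mean above background, up to 4 per comparison, could be named, and per member the 2 genes with the highest Pearson r. Replicate numbers are shared between groups, but arrays with the same number did not deviate together (correlations of -0.144 to 0.040), so they were not taken as pairs. Alternatives were the values as deposited, pseudocounts of 1 and 64, a filter on dim genes, every probe set tested, an intensity trend, array weights, other arrays in the fit, a replicate block, the labelling kit as a term and each array left out. The comparison within 1 kit was added after seeing the data.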

Additional observations from a re-analysis of the deposited data

Results flagged for a closer look

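Tcf7l1 had 1 E18 array far from the rest: replicate 3 read 5.98, while the other 3 lay at 4.62 to 4.67 (all on the log2 scale). The gap exceeded Dixon's 95% critical value for 4 samples, 0.829. Of 20 groups of 4 arrays checked this was the single one past that value, and chance gives about 1 in 20.

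For 5 genes the GFP difference at E14 differed between Prominin and ungated cells in the limma fit over all genes. The difference in Prominin cells minus that in ungated cells was 1.90 for Wnt7b, 2.12 for Rspo3, 1.67 for Dact1, -1.11 for Sfrp1 and -1.40 for Sfrp2 (log2). Each of the 5 stayed called when any 1 of the 13 E14 arrays was left out, and for each the difference in ungated cells was the larger in size. The dimmer Rspo3 probe set gave 0.36 ± 0.44, not called.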

How the results depend on the processing

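Of the 36 calls among 70 pairs of member and comparison, 23 held under every alternative run, 13 were lost under at least 1, and 0 changed sign. With the replicate block, not taken as a pairing, Wnt7b lost the call in both E18 comparisons (-0.79 and -1.06), Wnt5a and Wnt8b for E18 against E14 GFP-high (0.73 and 0.67) and Rspo3 for Prominin against ungated GFP-low cells (-0.75). Genes called between E14 GFP-high and GFP-low Prominin cells numbered 305, against 74 with a pseudocount of 1, 554 with 64 (where 4 members were called, in place of 2), 510 without the dimmest 40% of genes, 137 with every probe set tested, 466 with an intensity trend, and 76 to 228 with 1 array left out. The replicate block gave 8 there, 1867 in place of 2869 in the ungated sort, and 3083 in place of 4850 and 1128 in place of 3166 for E18 against E14 GFP-high and GFP-low cells. In the ungated sort the kit as a term gave 1841, and 1 array left out 1841 to 2854. For Prominin minus ungated GFP-high cells the kit as a term gave 1688 and the MessageAmp arrays alone 1661, in place of 3774. For GFP-low cells their own 6 arrays gave 1518 and the kit as a term 373, in place of 3496. Members called in GFP-low cells were 3 and 0 under these 2 settings, in place of 5, and 3 to 5 with 1 array left out. The cause of these changes was not tested.

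Differences that were not called changed sign for 9 pairs; ranges in brackets are with 1 array left out. For E18 minus E14 GFP-high, the values as deposited gave Rspo2 0.015. For E18 minus E14 GFP-low, they gave Sfrp2 0.15 and array weights 0.0078 (-0.19 to 0.14). There the replicate block gave Wnt5a -0.22 (-0.0076 to 0.35), Wnt7a -0.047 and Wnt8b -0.17 (-0.091 to 0.36). For Prominin minus ungated GFP-high cells, the kit as a term and the MessageAmp arrays alone gave Sfrp1 -0.044 (-0.13 to 0.16) and Wnt8b 0.20 (-0.40 to 0.0089), and the block gave Wnt5a -0.0085 (-0.10 to 0.49). In the ungated sort a pseudocount of 64 gave Wnt8b -0.024 and the values as deposited -0.068 (-0.31 to 0.44). With the values as deposited the median over all genes of E18 minus E14 GFP-high was 0.036, against -0.066 after quantile normalisation. Group means of Wnt8b and Rspo2 were below background in all 5 groups, those of Wnt5a in 3, Rspo3 in ungated GFP-high cells and Tcf7l1 at E18, which limits what differences from those groups show.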
